A study of Mus musculus with 19 samples.

Results

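Genes of the cell cycle, 40 of the 39017 genes counted, were followed in mouse mammary cancer cells from lean and obese hosts. They were taken from a list of symbols: 19 act at the entry into S phase or in DNA replication (called G1/S genes here) and 21 act in G2 or mitosis (G2/M genes). All 40 passed the filter on low counts, as did 16352 genes in all. The cells were E0771, a mammary carcinoma line that arose in the C57BL/6 strain, carrying the fluorescent protein mCherry. They were placed in the mammary fat pad of c57bl6 mice that were lean (sample names with Chow) or obese (sample names with HFD), and the tumors were taken at day 14, called midpoint, or at day 21, called endpoint. After dissociation the mCherry-positive cells were sorted and their RNA was sequenced as bulk libraries: 4 lean and 5 obese libraries at day 14, and 4 lean and 5 obese libraries at day 21. All groups carry the same cell line and no group is untreated tissue, so E0771 cells outside a mouse were not a reference here. Comparisons between days answer how the genes differ between early and late tumors of 1 host type, and those between hosts how they differ with obesity at 1 day.

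Cells pass from G1 into S phase when cyclin D and cyclin E kinases inactivate the retinoblastoma protein and release E2F transcription factors, which switch on the genes of DNA replication. Later the complex of Foxm1, B-Myb and MuvB, bound at an element called CHR, switches on genes of the spindle, the kinetochore and the exit from mitosis, so many G2/M genes peak together as cells divide. In tumors, transcripts of both groups are widely used as measures of proliferation, although single transcripts also depend on their own stability and on how well the library preparation captures them.

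The promoters of 5 genes that lead the results are printed here, as the strand of the gene from 250 bases before to 50 bases after the start site in the RefSeq promoter table of GRCm38.p6. In obese hosts Kif11 and Bub1 had the highest day 21 to day 14 ratios of the 40 genes, Plk1 and Cdc20 the lowest of the G2/M genes, and Mcm5 the lowest of the G1/S genes. Capitals mark the motifs that were searched on both strands: CHR, as TTTGAA and its variant TTCGAA, then CCAAT, which is the box of the factor NF-Y, and E2F, as TTCCCGC and as the related letters TTGGCGC, with TTCGCGC as a further form. Matches may overlap each other.
Kif11, chr19:37376132-37376431, plus strand: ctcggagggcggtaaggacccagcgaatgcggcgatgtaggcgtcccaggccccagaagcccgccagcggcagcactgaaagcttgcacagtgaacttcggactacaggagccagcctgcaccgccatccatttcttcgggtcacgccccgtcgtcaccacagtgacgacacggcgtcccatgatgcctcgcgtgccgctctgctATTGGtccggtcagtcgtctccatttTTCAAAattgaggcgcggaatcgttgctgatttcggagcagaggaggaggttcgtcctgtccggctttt
Bub1, chr2:127831810-127832109, minus strand: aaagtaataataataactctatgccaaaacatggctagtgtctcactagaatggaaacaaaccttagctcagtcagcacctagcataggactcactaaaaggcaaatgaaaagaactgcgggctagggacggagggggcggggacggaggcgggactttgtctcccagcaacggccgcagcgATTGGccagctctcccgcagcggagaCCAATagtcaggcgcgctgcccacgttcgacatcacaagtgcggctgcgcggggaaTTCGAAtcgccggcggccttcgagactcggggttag
Plk1, chr7:122159185-122159484, plus strand: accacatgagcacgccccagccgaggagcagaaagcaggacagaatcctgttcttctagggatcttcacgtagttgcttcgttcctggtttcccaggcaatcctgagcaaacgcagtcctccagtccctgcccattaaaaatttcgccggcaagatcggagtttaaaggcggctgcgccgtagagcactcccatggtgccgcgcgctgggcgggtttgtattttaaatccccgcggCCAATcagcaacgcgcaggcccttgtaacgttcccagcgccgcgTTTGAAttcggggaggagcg
Cdc20, chr4:118437294-118437593, minus strand: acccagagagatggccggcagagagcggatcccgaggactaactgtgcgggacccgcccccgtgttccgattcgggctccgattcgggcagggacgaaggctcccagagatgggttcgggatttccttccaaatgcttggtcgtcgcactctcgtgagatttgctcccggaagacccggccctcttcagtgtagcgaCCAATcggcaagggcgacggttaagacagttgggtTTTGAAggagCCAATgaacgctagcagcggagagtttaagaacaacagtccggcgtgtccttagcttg
Mcm5, chr8:75109259-75109558, plus strand: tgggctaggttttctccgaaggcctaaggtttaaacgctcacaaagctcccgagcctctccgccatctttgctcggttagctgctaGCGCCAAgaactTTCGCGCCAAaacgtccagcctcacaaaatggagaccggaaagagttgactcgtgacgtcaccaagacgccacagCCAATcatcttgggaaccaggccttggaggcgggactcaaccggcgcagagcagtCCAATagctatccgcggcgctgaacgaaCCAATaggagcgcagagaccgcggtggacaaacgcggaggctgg

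Kif11 had a CHR match at -19 and a CCAAT match at -45 from the start site, Cdc20 a CHR match at -18 and CCAAT matches at -53 and -8, and Plk1 a CHR match at 31 and a CCAAT match at -14. Bub1 had a CHR match at 15 and CCAAT matches at -68 and -42. Mcm5 had no CHR match in its window, and its E2F matches began at -164, -152 and -149. A promoter window was at hand for 31 of the 40 genes. CHR was found in 13 of 16 G2/M and 4 of 15 G1/S windows, against 14.2% of the windows of 10860 tested genes. E2F was found in 3 of 16 G2/M and 7 of 15 G1/S windows, against 14.2% of all, and CCAAT in 15 of 16 and 10 of 15, against 38.1% of all. Among genes that were higher at day 21 in obese hosts 6 of 8 windows held CHR, and among those that were lower 8 of 16 did. Genes with a CHR match were thus found among those that rose (Kif11, Bub1) and those that fell (Plk1, Cdc20), as described below. A match of letters is not a binding site, and a window without one says nothing of the factor.

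The 18 libraries compared held 44174080 to 56996252 counts each. A further lean day 21 library, replicate 4, held 11889188 counts that stop on chromosome 5 and was left out. Levels leaned on the GC content of genes to a different degree in each library. This was measured on log2 CPM (counts scaled to library size) as the deviation from each gene's mean over the 18 libraries. For 10 percentage points more GC the mean slope of this deviation was 0.26 in lean and 0.95 in obese hosts at day 14. At day 21 it was -0.56 and -0.70, with no overlap between the days. The slopes are relative to the mean library, so their sign does not show whether levels rise with GC within a library. The share of mitochondrial transcripts was 5.79 to 12.3% at day 14 and 17.1 to 44.7% at day 21, again with no overlap, and lean day 21 replicate 1 had the highest. No label gives a handling batch, and a batch that went with the day cannot be told apart from the day. Of 5 mammary epithelial markers Krt8 was at 17.5 to 64.8 CPM, while Epcam, Krt18, Krt19 and Cdh1 stayed at or below 0.245 CPM, and Krt19 was at 0 in 3 of the 4 groups. All 8 fibroblast markers were detected, with a sum of 979.9 to 2772 CPM. All 13 macrophage and 9 pan-leukocyte markers were counted in every library, with sums of 139.6 to 753 CPM and 57.8 to 202 CPM, and the T and NK list summed to at most 13.7 CPM. The fibroblast and macrophage sums overlapped between the days in both hosts, but the fibroblast sum was mostly Col3a1 (855 to 2372 CPM). Of the 8 fibroblast markers 3 (Dcn, Lum and Pdgfra) were higher and 3 (Col1a1, Col1a2 and Thy1) lower at day 21 without overlap, in each host. Dcn was at 0.231 to 1.74 CPM at day 14 and 6.22 to 49.5 CPM at day 21. Col1a1 was at 2.48 to 11.4 CPM in lean and 7.33 to 16.9 CPM in obese libraries at day 14, and at 0.504 to 1.68 and 1.63 to 4.02 CPM at day 21. Of the 13 macrophage markers Mrc1 was higher at day 21 without overlap in both hosts and Fcgr1 lower in lean hosts. In lean hosts the pan-leukocyte sum (110 to 161 CPM at day 14 and 76.7 to 105 CPM at day 21) and the T and NK sum (6.23 to 9.93 and 2.28 to 4.65 CPM) did not overlap, and in obese hosts the epithelial sum (34.8 to 64.9 and 17.6 to 23.4 CPM) did not. Of the 9 pan-leukocyte markers 5 were lower at day 21 without overlap in lean hosts. In obese hosts 3 (Ptprc, Cd53 and Cd48) were higher and 1 (Cd37) lower without overlap. Ptprc was at 0.671 to 1.58 CPM in obese libraries at day 14 and at 4.41 to 29.6 CPM at day 21. The part of these lists in the results was not tested. Endothelial and erythroid lists summed to at most 17.3 and 15.1 CPM. The 5 adipocyte markers summed to 3.93 to 9.72 CPM at day 14 and 10.7 to 80.0 CPM at day 21, without overlap between the days. That sum was nearly all Fabp4 (2.18 to 9.55 and 10.6 to 79.3 CPM), while Adipoq, Lep and Cfd stayed at or below 0.645 CPM and Plin1 was lower at day 21 (0.774 to 2.25 and 0 to 0.387 CPM in obese libraries). The part of this list was not tested either.

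Between genes, levels were compared as CPM per kilobase of exons. In lean hosts at day 14 the helicase subunits Mcm6, Mcm3 and Mcm5 stood highest, at 105, 97.2 and 87.5 CPM per kilobase, followed by Ccnd1, the D-type cyclin that starts G1 progression, at 81.4. Ttk, a spindle checkpoint kinase, stood lowest at 0.814, below Cenpe at 0.99 and Cenpf at 1.2 CPM per kilobase, which encode large kinetochore proteins. Mcm6 kept the first rank in lean and obese hosts at day 21, whereas in obese hosts at day 14 Mcm5 was first at 149 CPM per kilobase. Ttk had the lowest rank in all 4 groups. Top2a, the topoisomerase that untangles sister chromatids, moved from rank 30 in lean and 31 in obese hosts at day 14 to ranks 9 and 6 at day 21. The spread between libraries of 1 group, as the SD of log2 CPM, had a median over the 40 genes of 0.22 in lean and 0.49 in obese hosts at day 14, and of 0.32 and 0.23 at day 21. In bulk RNA a lower level can mean fewer dividing cells or less RNA per cell, and these cannot be told apart.

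**Figure D1:**
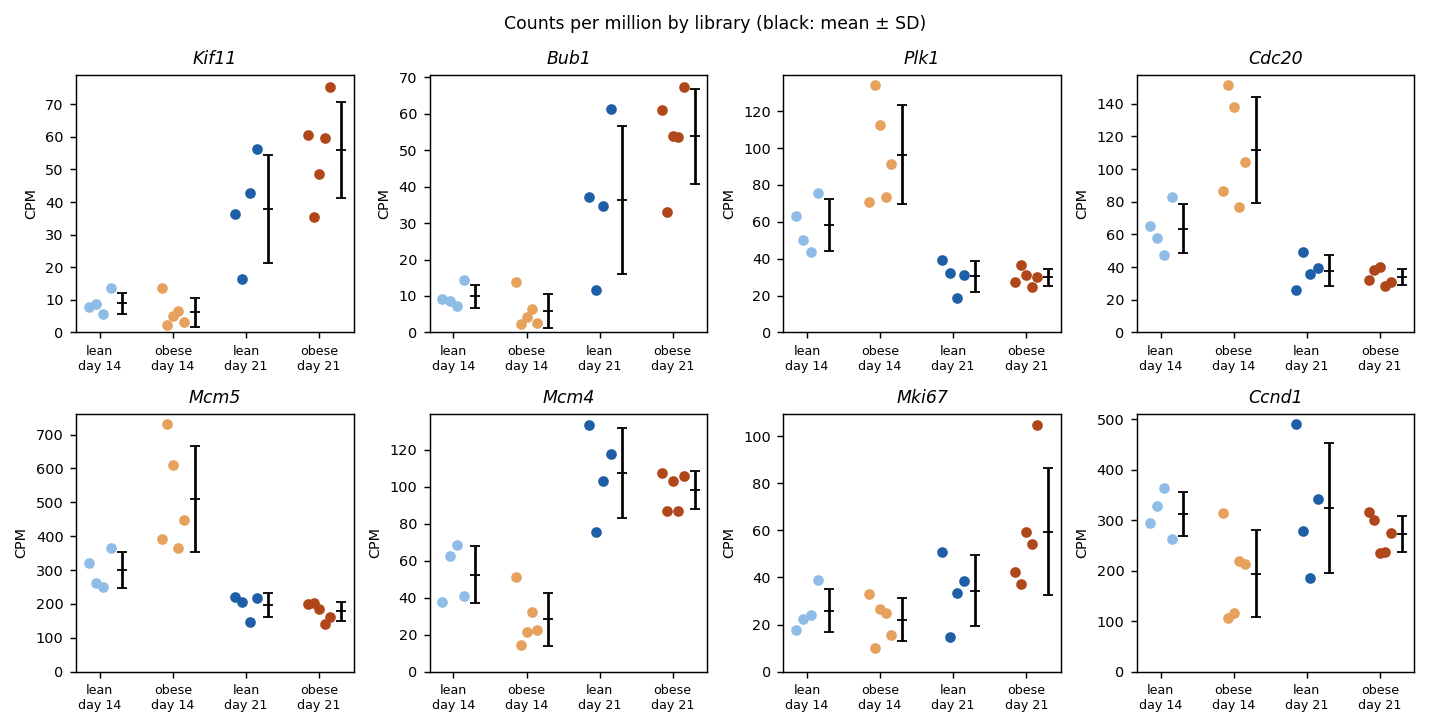
TMM-scaled CPM (y axis, from 0) of 8 cell cycle genes in each of the 18 libraries, by host and day; points are libraries and black bars the mean ± SD. In obese hosts Kif11, Bub1 and Mcm4 lie higher at day 21 and Plk1, Cdc20 and Mcm5 lower, without overlap, and Ccnd1 overlaps between all groups.

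The comparison of days in obese hosts gave the most calls. At day 21 the CDK partner Ccne2, the mitotic motor Kif11, the checkpoint kinases Bub1 and Ttk, the topoisomerase Top2a, the kinetochore proteins Cenpe and Cenpf and the helicase subunit Mcm4 rose by 1.79 to 3.20 on the log2 scale. In the same libraries the helicase subunits Mcm2, Mcm3, Mcm5 and Mcm7, the transcription factors E2f1 and Foxm1, the thymidine kinase Tk1 and the mitotic regulators Plk1, Cdc20 and Aurka fell. Of the 40 genes 12 were higher and 19 lower at day 21 in edgeR's quasi-likelihood test (p-values adjusted after Benjamini and Hochberg, threshold 0.05). Over all genes tested 73.9% were called, 37.8% higher and 36.1% lower, so the share called among the 40 genes was close to the background. In lean hosts 6 were higher and 10 lower, where 30.9% of all genes were called, 21.4% higher and 9.5% lower.

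Among the cyclins that drive entry into S phase, Ccne2 and Ccne1, which encode the E-type partners of Cdk2, went opposite ways. Ccne2 had 4.50, 5.97, 4.90 and 8.44 CPM in lean and 8.69, 2.92, 4.36, 4.49 and 3.25 CPM in obese libraries at day 14, and 35.0, 9.21, 25.5 and 33.1 CPM in lean and 42.4, 21.3, 34.4, 37.4 and 47.4 CPM in obese libraries at day 21. The days did not overlap in either host, and the lowest day 21 library was lean replicate 2. The log2 fold change was 2.94 ± 0.36 (SE, n = 5 and 5) in obese hosts (edgeR adjusted p = 1.1e-06) and 2.11 ± 0.39 (SE, n = 4 and 4) in lean hosts (edgeR adjusted p = 0.000592). Of the exon length of Ccne2, 17.4% is shared with Ints8 on the opposite strand, and the strand setting of the counting is not known, so its counts are uncertain. Ccne1 had 49.6, 41.6, 37.7 and 50.3 CPM in lean and 63.6, 66.1, 66.8, 55.5 and 56.8 CPM in obese libraries at day 14, and 38.5, 34.1, 22.9 and 32.5 CPM in lean and 34.9, 35.1, 44.4, 28.7 and 31.1 CPM in obese libraries at day 21. The lean days alone overlapped, by the replicates at 37.7 and 38.5 CPM. It fell by 0.83 ± 0.16 (SE) on the log2 scale in obese hosts (edgeR adjusted p = 0.000141) and by 0.49 ± 0.18 (SE) in lean hosts (edgeR adjusted p = 0.0466). Ccnd1 was not called in any comparison, with 262 to 364 CPM in lean and 105 to 315 CPM in obese libraries at day 14, and 185 to 491 CPM and 236 to 315 CPM at day 21. It shares 21.3% of its exon length with a gene on the opposite strand.

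The MCM proteins form the ring helicase that is loaded on origins in G1 and unwinds DNA in S phase, yet its subunits did not move together. Mcm5 had 321, 262, 249 and 365 CPM in lean and 392, 731, 609.8, 366 and 447 CPM in obese libraries at day 14, and 221, 205, 146 and 218 CPM in lean and 200.4, 204, 184, 139.5 and 159.9 CPM in obese libraries at day 21. Every day 14 library lay above every day 21 library. In obese hosts Mcm5 fell by 1.52 ± 0.20 (SE) on the log2 scale (edgeR adjusted p = 2.6e-06), and in lean hosts by 0.60 ± 0.22 (SE; edgeR adjusted p = 0.0435). Mcm7 had 115, 98.9, 89.9 and 126 CPM in lean and 122, 192, 175, 139 and 139 CPM in obese libraries at day 14, and 67.8, 81.1, 64.0 and 75.7 CPM in lean and 72.6, 76.2, 76.5, 62.8 and 65.8 CPM in obese libraries at day 21. Again the days did not overlap. Mcm7 fell by 1.12 ± 0.15 (SE) in obese hosts and by 0.58 ± 0.17 (SE) in lean hosts, Mcm2 fell by 1.26 ± 0.17 (SE) in obese hosts, and Mcm3 fell by 0.94 ± 0.15 (SE) and 0.59 ± 0.17 (SE).

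Mcm4, in contrast, had 37.6, 62.4, 68.7 and 40.7 CPM in lean and 51.3, 14.6, 21.4, 32.2 and 22.4 CPM in obese libraries at day 14, and 133, 75.7, 103 and 118 CPM in lean and 107, 87.1, 103, 86.8 and 106 CPM in obese libraries at day 21. All day 21 libraries lay above all day 14 libraries. Its log2 fold change was 1.79 ± 0.27 (SE) in obese hosts (edgeR adjusted p = 1.2e-05) and 1.04 ± 0.30 (SE) in lean hosts (edgeR adjusted p = 0.014). Mcm6 was not called in either host, at 0.04 in obese and -0.15 in lean hosts on the log2 scale.

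The other replication genes of obese hosts included Cdc45, which joins the helicase at the fork and fell by 0.88 ± 0.17 (SE), the origin loading factor Cdc6, which fell by 0.58, and Gmnn, which encodes the licensing inhibitor geminin and fell by 0.52. Pcna, the sliding clamp of DNA polymerase, rose by 0.72 ± 0.23 (SE) on the log2 scale (edgeR adjusted p = 0.00901), with 2 pseudogenes by name that could share its reads. Of the enzymes of nucleotide supply, Tk1 fell by 1.26 ± 0.19 (SE) and Tyms, thymidylate synthase, by 0.59 ± 0.15 (SE), whereas the ribonucleotide reductase subunits Rrm1 (0.11) and Rrm2 (-0.20) were not called. E2f1 fell by 1.20 ± 0.20 (SE; edgeR adjusted p = 3.1e-05), and E2f8, a repressor of the same family, was not called. In lean hosts none of Cdc45, Cdc6, Gmnn, Pcna, Tk1, Tyms, Rrm1, Rrm2, E2f1 and E2f8 was called by edgeR. Over the 19 G1/S genes 3 were higher and 11 lower in obese hosts, with a median log2 fold change of -0.58, and 2 were higher and 4 lower in lean hosts, with a median of -0.24. The median over all genes tested was 0.00 in obese and 0.04 in lean hosts.

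Among the G2/M genes, Kif11, the motor that pushes spindle poles apart, had 7.76, 8.56, 5.71 and 13.5 CPM in lean and 13.5, 2.41, 5.07, 6.54 and 3.09 CPM in obese libraries at day 14, and 36.3, 16.4, 42.9 and 56.3 CPM in lean and 60.6, 35.5, 48.7, 59.6 and 75.4 CPM in obese libraries at day 21. The days did not overlap in either host. The log2 fold change was 3.19 ± 0.42 (SE, n = 5 and 5) in obese hosts (a 9.10-fold difference, edgeR adjusted p = 2.7e-06) and 2.10 ± 0.45 (SE, n = 4 and 4) in lean hosts (edgeR adjusted p = 0.00189). Bub1, a kinase of the spindle checkpoint, had 9.19, 8.50, 7.35 and 14.5 CPM in lean and 13.8, 2.20, 4.24, 6.34 and 2.58 CPM in obese libraries at day 14, and 37.3, 11.6, 34.8 and 61.2 CPM in lean and 61.1, 33.0, 53.8, 53.7 and 67.5 CPM in obese libraries at day 21. In lean hosts 1 library of each day crossed, day 14 replicate 4 at 14.5 and day 21 replicate 2 at 11.6 CPM, and in obese hosts the days did not overlap. Bub1 rose by 3.20 ± 0.47 (SE) in obese hosts (edgeR adjusted p = 7.1e-06) and by 1.87 ± 0.49 (SE) in lean hosts (edgeR adjusted p = 0.00798). Top2a rose by 2.82 ± 0.42 (SE) in obese and 1.70 ± 0.45 (SE) in lean hosts, and Ttk by 2.55 ± 0.36 (SE) and 1.30 ± 0.39 (SE). Cenpe rose by 2.41 ± 0.43 (SE) and Cenpf by 2.36 ± 0.44 (SE) in obese hosts.

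Plk1, the kinase that drives centrosome maturation and mitotic entry, had 63.4, 50.1, 43.6 and 75.5 CPM in lean and 70.9, 134, 113, 73.5 and 91.2 CPM in obese libraries at day 14, and 39.2, 32.4, 18.7 and 31.4 CPM in lean and 27.6, 36.6, 31.4, 24.4 and 29.8 CPM in obese libraries at day 21. All day 14 libraries lay above all day 21 libraries. Plk1 fell by 1.69 ± 0.22 (SE) on the log2 scale in obese hosts (edgeR adjusted p = 2.7e-06) and by 0.94 ± 0.24 (SE) in lean hosts (edgeR adjusted p = 0.00764). Cdc20, the activator of the anaphase-promoting complex, had 65.3, 57.9, 47.5 and 83.1 CPM in lean and 86.4, 152, 138, 76.7 and 104 CPM in obese libraries at day 14, and 26.1, 49.1, 35.9 and 39.4 CPM in lean and 32.3, 38.2, 39.8, 28.5 and 30.7 CPM in obese libraries at day 21. Only lean day 14 replicate 3 and lean day 21 replicate 2 crossed. Cdc20 fell by 1.72 ± 0.22 (SE) in obese hosts (edgeR adjusted p = 1.7e-06) and by 0.75 ± 0.24 (SE) in lean hosts (edgeR adjusted p = 0.0222).

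Foxm1, the transcription factor of the G2/M program, had 98.1, 80.8, 77.3 and 111 CPM in lean and 125, 167, 233, 133 and 124 CPM in obese libraries at day 14, and 53.2, 62.2, 60.2 and 65.2 CPM in lean and 56.0, 73.3, 63.2, 37.8 and 69.4 CPM in obese libraries at day 21. The days did not overlap in either host. Foxm1 fell by 1.38 ± 0.20 (SE) in obese hosts (edgeR adjusted p = 7.0e-06) and by 0.61 ± 0.22 (SE) in lean hosts (edgeR adjusted p = 0.0439). The Aurora kinases Aurka and Aurkb fell in both hosts, by 1.11 and 0.58 in obese and by 0.85 and 0.69 in lean hosts, as did Ube2c, the ubiquitin-conjugating enzyme of the anaphase-promoting complex, by 0.76 and 0.61. Ube2c shares 22.8% of its exon length with Tnnc2 on the opposite strand. Birc5, the survivin subunit of the chromosomal passenger complex, fell by 0.99 ± 0.20 (SE) and Cdk1 by 0.41 ± 0.16 (SE) in obese hosts.

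Mki67, which encodes the proliferation antigen Ki-67, had 17.8, 22.4, 24.2 and 39.0 CPM in lean and 33.1, 9.87, 26.8, 25.0 and 15.7 CPM in obese libraries at day 14, and 51.0, 14.7, 33.4 and 38.4 CPM in lean and 42.2, 37.2, 59.2, 54.0 and 105 CPM in obese libraries at day 21. The days overlapped in lean hosts and not in obese hosts. It rose by 1.43 ± 0.36 (SE) in obese hosts (edgeR adjusted p = 0.00133), and its log2 fold change was 0.41 ± 0.39 (SE) in lean hosts (edgeR adjusted p = 0.425). The spindle factor Tpx2 rose by 0.99 ± 0.28 (SE) and the cyclin Ccna2 by 0.65 ± 0.21 (SE) in obese hosts. The mitotic cyclins Ccnb1 and Ccnb2, the checkpoint kinase Bub1b and the cytokinesis motor Kif20a were called in neither host. Ccnb1 and Ccnb2 each have 1 pseudogene by name, and Kif20a shares 33.2% of its exon length with Cdc23 on the opposite strand. Of the 21 G2/M genes 9 were higher and 8 lower in obese hosts, with a median of -0.23, and 4 were higher and 6 lower in lean hosts, with a median of -0.33.

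Each gene called in lean hosts was also called in obese hosts and in the same direction, 6 higher and 10 lower. These comparisons share no library, but the fit used 1 estimate of the spread for all 4 groups. Of all genes tested 73.9% were called in obese hosts. The agreement in direction was not counted over all genes. Another 15 genes were called in obese hosts alone, which does not show that the hosts differ. The size of the change was larger in obese hosts for 32 of the 40 genes, a count that was not made over all genes. The difference itself was tested by the diet by time interaction below. The libraries of the days did not overlap for 25 of the 40 genes in obese hosts, where this held for 60.2% of all genes, and for 17 in lean hosts, where it held for 33% of all genes. In obese hosts 1 call, that of Cdk1, was lost when single libraries were left out (adjusted p up to 0.0981 by edgeR, without obese day 14 replicate 1 or 5, lean day 21 replicate 1, or obese day 21 replicate 4 or 5). In lean hosts 9 of the 16 calls were lost in this way, with an edgeR adjusted p of at most 0.152. Over all genes, leaving out 1 library gave 3251 to 6388 calls in lean hosts, against 5053 with all 18 libraries. The number called among the 40 genes was lowest, at 9, without lean day 21 replicate 3. That library ended the calls of Mcm7, Aurkb and Ube2c as the only one, and those of Ccne1, Mcm5, Cdc20 and Foxm1 among others. Mcm4 was lost without lean day 14 replicate 1 or 4 or lean day 21 replicate 1, and Ttk without lean day 14 replicate 1 or lean day 21 replicate 5 (edgeR adjusted p of 0.0606 to 0.0702). Cdc20 was also lost without lean day 14 replicate 4, and Cdc20 and Foxm1 without lean day 21 replicate 1. Foxm1, Mcm5 and Ccne1 were lost without lean day 14 replicate 1 or 4, lean day 21 replicate 5 and several single obese libraries.

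**Figure D2:**
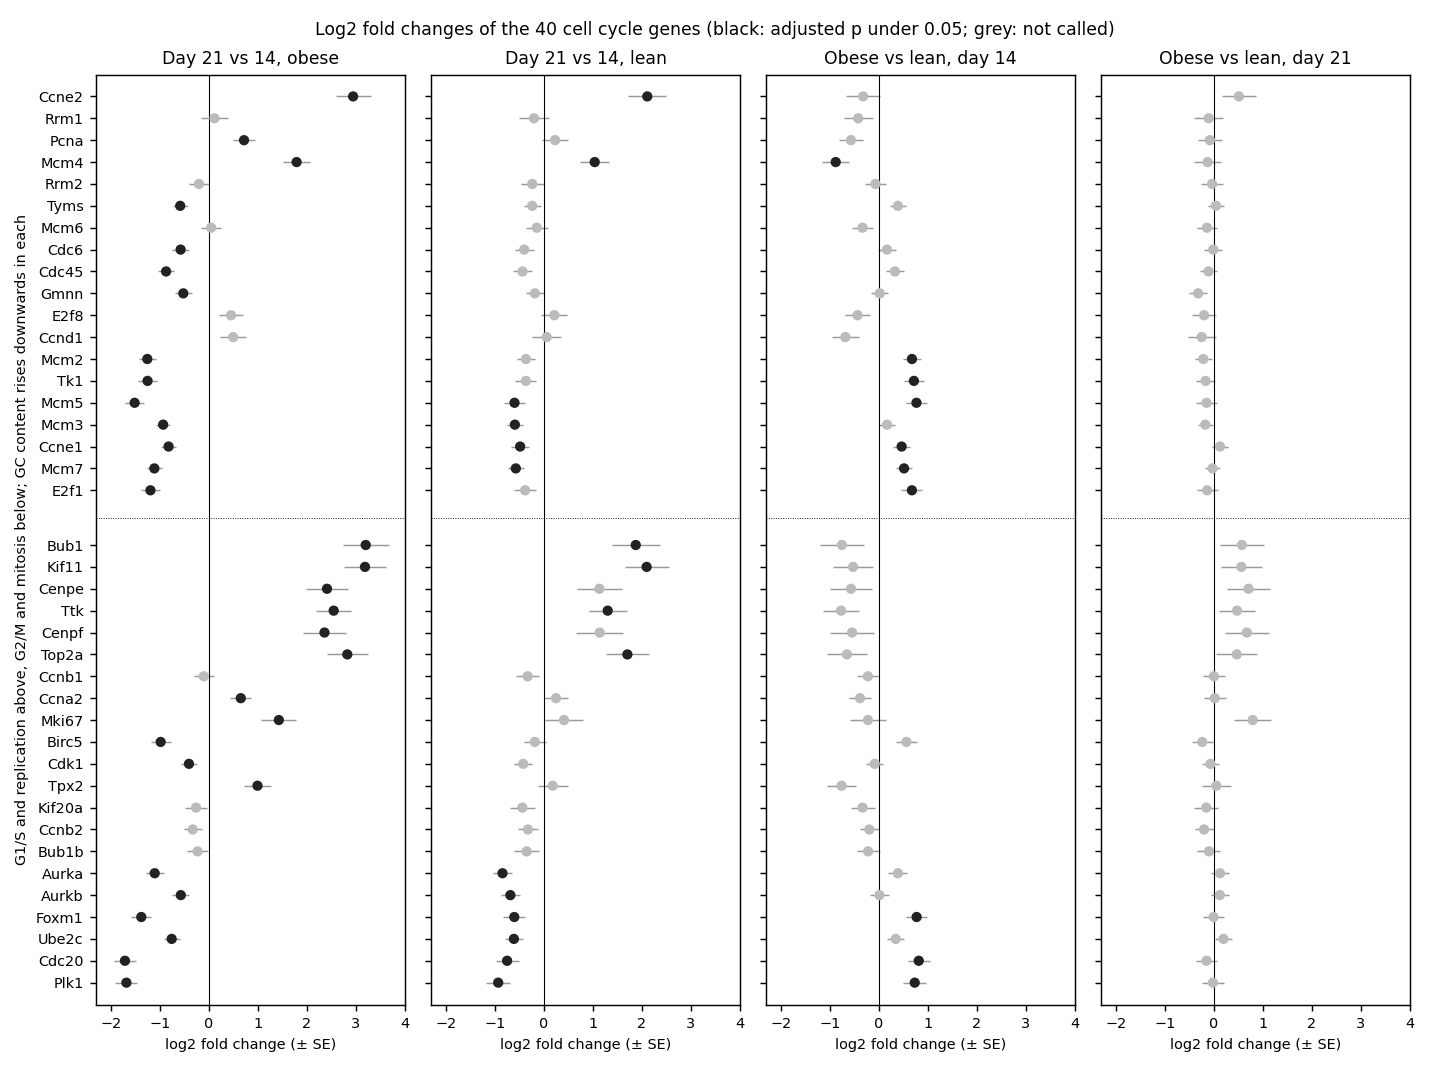
Log2 fold changes ± SE (x axis) of the 40 cell cycle genes in 4 comparisons, with G1/S genes in the upper and G2/M genes in the lower block and GC content rising downwards within each block; black points passed an adjusted p of 0.05 and grey points did not. In the 2 left panels values run from above 0 at the top of each block to below 0 at its bottom, in the third panel the other way, and in the right panel no gene passed.

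The plot of fold changes is ordered by GC content because that order followed the direction of change in both gene groups. Genes that were higher at day 21 in obese hosts had a median GC content of 43.3% (range 36.3 to 47.8%), and genes that were lower had 51.9% (46.7 to 58.3%). Across the 40 genes, Pearson's r between GC content and log2 fold change was -0.84 (Spearman's rho -0.86) in obese and -0.81 (rho -0.85) in lean hosts. Over 16122 tested genes with a GC value, r was -0.69 in obese and -0.57 in lean hosts, so the trend was not particular to cell cycle genes. These are correlations across genes of the same libraries, which are not independent replicates. The 9 genes with GC under 45%, a limit set after the values were seen, had a mean of 4.14 ± 0.32 log2 CPM (SD) in the 4 lean and 3.46 ± 0.76 (SD) in the 5 obese libraries of day 14, and of 5.23 ± 0.70 and 5.76 ± 0.30 at day 21. The 16 genes with GC over 50% had means of 6.72 ± 0.16, 7.05 ± 0.10, 6.21 ± 0.22 and 6.16 ± 0.19 in the same order.

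The GC and length trend of each library was therefore removed as an alternative reading, by a smooth fit over all genes. Afterwards 6 of the 40 genes were higher and 23 lower at day 21 in obese hosts, against 25.3% higher and 32.2% lower over all genes (57.6% called in all). Of the 31 earlier calls 22 were kept in direction, 6 higher and 16 lower. The 6 that rose in both readings were Kif11 (1.36 after correction), Bub1 (1.29), Ttk (1.04), Top2a (0.98), Mcm4 (0.68) and Ccne2 (0.63). Cenpe (0.39), Cenpf (0.21), Mki67 (0.06) and Tpx2 (0.30) were no longer called, and neither were E2f1 (-0.17) and Aurkb (-0.23). Pcna (-0.28), Ccna2 (-0.31) and Ube2c (0.07) had the opposite sign, and among these Ccna2 was then called as lower (edgeR adjusted p = 0.0421).

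The corrected decreases were led by Tyms at -1.77, Birc5 at -1.76 and Ccnb1 at -1.59, followed by Rrm1 at -1.44 and Mcm5 at -1.33. Tyms had 24.2, 28.2, 20.9 and 29.8 CPM in lean and 39.0, 32.9, 34.6, 29.5 and 32.7 CPM in obese libraries at day 14, and 21.8, 21.8, 18.9 and 24.7 CPM in lean and 23.7, 23.8, 24.4, 16.5 and 23.8 CPM in obese libraries at day 21. The obese days did not overlap before the correction either. Of the genes not called before, Mcm6, Rrm1, Rrm2, Ccnb1, Ccnb2 and Kif20a were called as lower after it. In lean hosts 2 genes were higher after the correction, Kif11 (0.95) and Ccne2 (0.73), and 9 were lower, against 12.3% and 12% of all genes (24.3% called in all). The 9 were Aurka, Mcm7, Cdc6, Rrm1, Rrm2, Tyms, Cdk1, Ccnb1 and Kif20a, and 4 of the 16 earlier calls were kept. The correlation with GC content across the 40 genes was then -0.40 in obese and -0.34 in lean hosts, and -0.03 and -0.02 over all genes, so a part of the order by GC remained in the 40 genes.

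**Figure D3:**
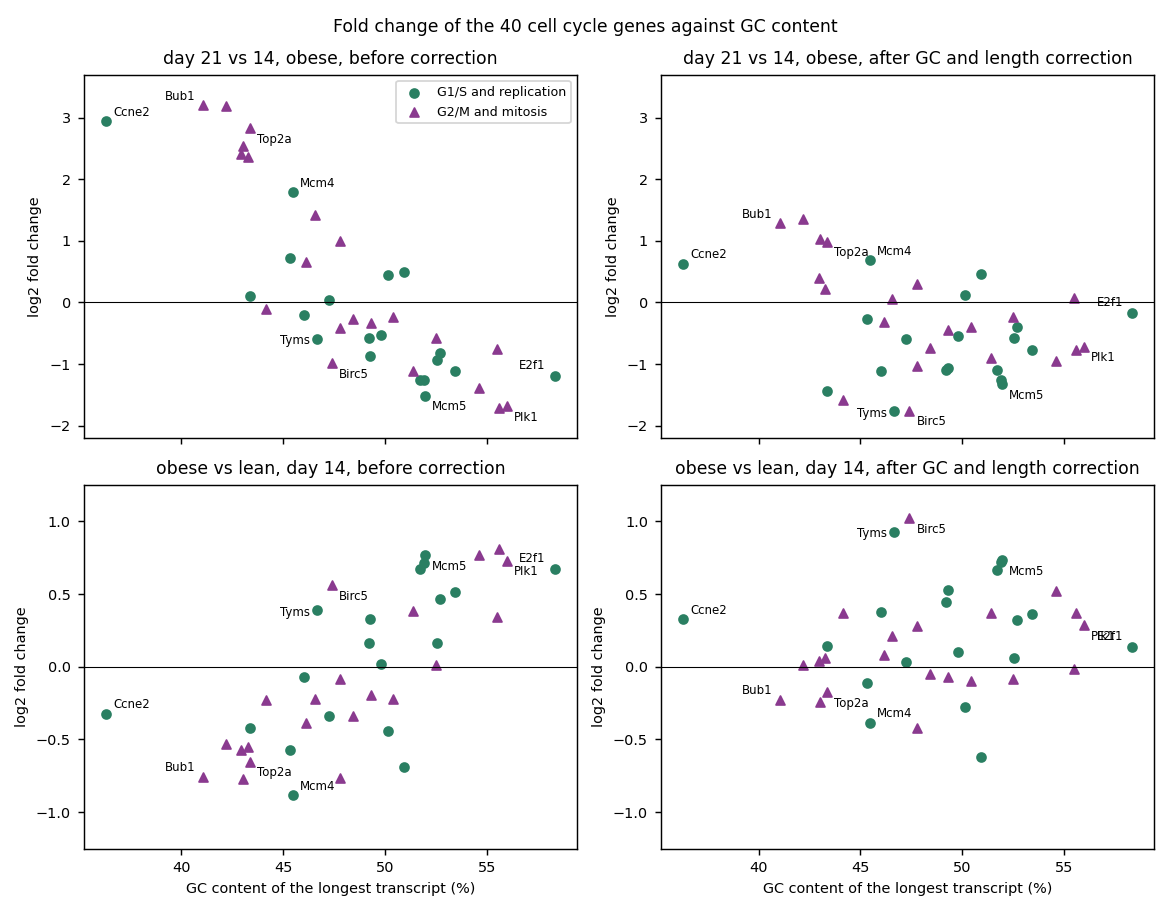
Log2 fold change (y axis) of the 40 cell cycle genes against the GC content of the longest transcript in percent (x axis), for the days in obese hosts (top) and the hosts at day 14 (bottom), before (left) and after (right) the GC and length correction; circles are G1/S and triangles G2/M genes. Pearson's r was -0.84 and 0.74 on the left and -0.40 and 0.19 on the right.

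G1/S and G2/M genes were then set against each other within each library, as the difference of their mean log2 CPM. G2/M minus G1/S was -0.71, -0.66, -0.71 and -0.41 in lean and -0.54, -1.09, -0.83, -0.78 and -0.98 in obese libraries at day 14. At day 21 it was -0.32, -0.73, -0.30 and -0.23 in lean and -0.19, -0.24, -0.12, -0.05 and 0.05 in obese libraries. In obese hosts all day 21 libraries lay above all day 14 libraries. In lean hosts the days overlapped through day 21 replicate 2 alone, which lay below every lean day 14 library. The group means were -0.62 ± 0.14 (SD, n = 4), -0.84 ± 0.21 (SD, n = 5), -0.40 ± 0.23 (SD, n = 4) and -0.11 ± 0.11 (SD, n = 5) for lean and obese at day 14 and lean and obese at day 21. After the GC and length correction they were -0.55 ± 0.15, -0.67 ± 0.14, -0.50 ± 0.16 and -0.25 ± 0.08, and the obese days still did not overlap (-0.83 to -0.46 and -0.34 to -0.15). No test is given for these means, since the genes were chosen with results of these data known.

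The mean of the 19 G1/S genes was 6.26 ± 0.06, 6.27 ± 0.20, 6.15 ± 0.20 and 6.09 ± 0.15 log2 CPM in lean and obese day 14 and lean and obese day 21 libraries. Corrected for GC and length it was 6.30 ± 0.07, 6.52 ± 0.10, 6.01 ± 0.18 and 5.92 ± 0.19, and the ranges at day 14 (6.20 to 6.37 in lean and 6.42 to 6.67 in obese) and at day 21 (5.74 to 6.13 and 5.63 to 6.08) did not overlap between days. The mean of the 21 G2/M genes was 5.64 ± 0.19, 5.43 ± 0.40, 5.76 ± 0.32 and 5.98 ± 0.13 before and 5.75 ± 0.21, 5.85 ± 0.21, 5.51 ± 0.21 and 5.67 ± 0.15 after the correction, with overlap between all groups after it. The order of the days for the G2/M mean thus depended on the correction.

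**Figure D4:**
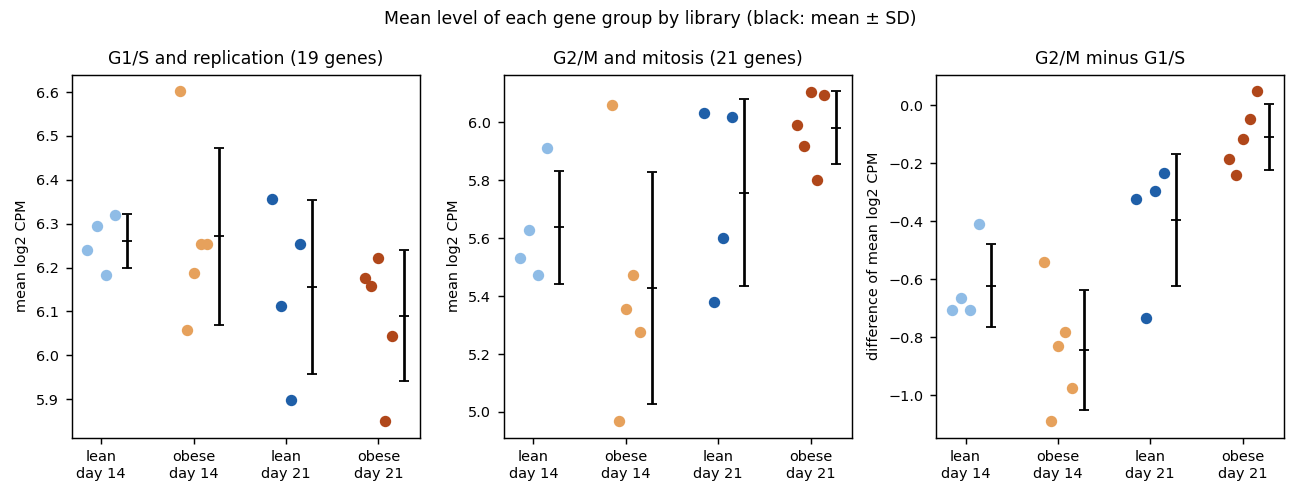
Mean log2 CPM (y axis) of the 19 G1/S genes, of the 21 G2/M genes, and the difference of the means in each of the 18 libraries, by host and day, before the GC correction; points are libraries and black bars the mean ± SD. The difference lies between -0.24 and 0.05 in obese day 21 libraries and between -1.09 and -0.54 in obese day 14 libraries.

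Obese and lean hosts were compared at day 14 to ask how host obesity relates to these genes in early tumors. In obese hosts 9 of the 40 genes were higher and 1 was lower, where 29.5% of all genes were called, 16.7% higher and 12.8% lower. Higher were the helicase subunits Mcm2, Mcm5 and Mcm7, the S phase cyclin Ccne1, E2f1 and Tk1 among the G1/S genes, and Cdc20, Plk1 and Foxm1 among the G2/M genes, by 0.46 to 0.81 on the log2 scale. Mcm4 fell by 0.88 ± 0.28 (SE) in obese hosts. Mcm5 was higher by 0.77 ± 0.21 (SE, n = 4 and 5), with the lean libraries between 249 and 365 CPM and the obese ones between 366 and 731 CPM as listed above, so the hosts did not overlap. Cdc20 was higher by 0.81 ± 0.23 (SE), with 1 lean library, at 83.1 CPM, inside the obese range. The adjusted p of the 10 genes by edgeR lay between 0.0304 and 0.0484. Libraries of the hosts did not overlap for 5 of the 40 genes, Ccne1, Mcm2, Mcm5, Tk1 and Foxm1, where this held for 8.04% of all genes. The median was 0.16 over the G1/S and -0.22 over the G2/M genes.

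The GC order was found here with the opposite sign, with r = 0.74 across the 40 genes and 0.60 over all genes. After the correction 7 of the 40 genes were higher and 0 lower, where 8.23% of all genes were higher and 3.64% lower (11.9% called in all). Mcm2 (0.67), Mcm5 (0.73), Mcm7 (0.36), Tk1 (0.72) and Foxm1 (0.52) were called in both readings, and Birc5 (1.02) and Tyms (0.93) were called only after the correction. Ccne1, E2f1, Plk1, Cdc20 and Mcm4 were no longer called, at 0.32, 0.13, 0.29, 0.37 and -0.38. Of the G1/S genes 5 and of the G2/M genes 2 were then higher, and the medians were 0.32 and 0.04, with 0.06 over all genes.

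These calls at day 14 rested on few libraries, and so did those over all genes. Leaving out 1 library gave 0 to 7946 calls over all genes. With all 18 libraries the smallest edgeR adjusted p of any gene was 0.0304, so every call lay near the threshold. The loss of calls is thus not particular to the 40 genes. With 1 library left out, edgeR called 0 of the 40 genes without lean day 14 replicate 2 (14 had an unadjusted p below 0.05), lean day 14 replicate 3 (9), obese day 14 replicate 2 (13) or obese day 14 replicate 3 (11), and 5 were called without lean day 14 replicate 1. Without obese day 14 replicate 1, whose levels of Kif11, Bub1 and Top2a were the highest of its group, 23 were called, 10 higher and 13 lower. In that fit 7946 genes in all were called. The GC slope of that library was the lowest of its group, at 0.33 against 0.67 to 1.52. With the day 14 libraries fitted alone edgeR called 0 of the 40 genes (14 had an unadjusted p below 0.05) and 0 of all genes. DESeq2 called 14 over all libraries, where it called 6055 genes in all. The direction of the balance also depended on the scaling for all genes, with 2726 higher and 2099 lower after TMM and 2199 and 2499 after RLE scaling, and for the 40 genes 9 and 1 against 8 and 2. With no filter on low counts it was 1084 and 2179 over all genes and 6 and 2 over the 40.

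At day 21 none of the 40 genes was called between obese and lean hosts by edgeR, where 0.00612% of all genes were called, and the libraries of the hosts overlapped for every one of them, whereas 1.97% of all genes had no overlap. At an unadjusted p under 0.05 there was 1, Mki67, and DESeq2 called 0. Mki67 had a log2 fold change of 0.79 ± 0.38 (SE, edgeR adjusted p = 0.989), with 14.7 to 51.0 CPM in lean and 37.2 to 105 CPM in obese libraries. The log2 fold changes of the 40 genes ran from -0.32 for Gmnn to 0.79, with a median of -0.13 over the G1/S and 0.05 over the G2/M genes. The order by GC content was also found here, with r = -0.56 across the 40 genes and -0.21 over all genes. With log2 gene length r was 0.58 across the 40 genes and 0.12 over all genes. After the GC and length correction it was 0.50 and 0.01.

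Whether the change between days differed between hosts was tested by the interaction of diet and time, and 0 of the 40 genes and 0% of all genes were called by edgeR. Of the 40 genes 10 had an unadjusted p under 0.05, and the smallest adjusted p was 0.0983. DESeq2 called 1 of them, Mcm2, at -0.80 ± 0.26 (SE; adjusted p = 0.0364). Without obese day 14 replicate 1, edgeR called 16 of the 40, 8 higher and 8 lower. Over all genes, leaving out 1 library gave up to 5656 calls. Among the 16, Top2a (1.73), Ttk (1.72) and Bub1 (1.93) were higher in the obese than in the lean change. Mcm2 (-0.97), E2f1 (-0.93) and Cdc20 (-1.04) were lower. The GC slope of the library left out was the lowest of its group, as given above. With all 18 libraries the interaction followed GC content too, with r = -0.79 across the 40 genes and -0.58 over all genes.

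Other genes of the same pathways were read from lists. Of 41 genes of origin licensing and the replication fork, 14 were higher and 18 lower at day 21 in obese hosts, and 6 and 6 in lean hosts. Over all genes these shares were 37.8% and 36.1% in obese and 21.4% and 9.5% in lean hosts. Orc2, a subunit of the origin recognition complex, and Rfc1, the large subunit of the clamp loader, rose by 2.88 ± 0.39 and 2.86 ± 0.34 (SE) in obese hosts, while Dut, which removes dUTP, and Chaf1b, a histone chaperone of the fork, fell by 1.12 ± 0.16 and 1.28 ± 0.16 (SE). After the GC and length correction the counts were 5 and 25 in obese hosts (25.3% and 32.2% of all genes) and 1 and 12 in lean hosts (12.3% and 12% of all genes), and these 4 genes kept their direction and call (1.57, 1.76, -1.14 and -1.78). At day 14, 8 were higher and 5 lower in obese than in lean hosts, where 16.7% and 12.8% of all genes were. Dut (0.59), the polymerase delta subunit Pold1 (0.96) and the nucleotide pyrophosphatase Dctpp1 (0.87) were higher and Orc2 was lower by 1.32, of which Dut (0.70) and Orc2 (-0.82) were still called after the correction.

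Of 53 tested genes of the kinetochore, spindle, condensin and cytokinesis, 26 were higher and 19 lower at day 21 in obese hosts (37.8% and 36.1% of all genes), and 19 and 11 in lean hosts (21.4% and 9.5%). Plk4, the kinase of centriole duplication, and Ndc80, which links kinetochores to microtubules, rose by 3.12 ± 0.33 and 2.84 ± 0.35 (SE) in obese and by 2.28 ± 0.35 and 1.83 ± 0.37 (SE) in lean hosts. The condensin subunit Ncapd2 and the mitotic entry factor Cdca3 fell by 1.37 ± 0.15 and 1.40 ± 0.17 (SE) in obese hosts. These 4 kept their call in obese hosts after the correction (1.10, 1.30, -0.95 and -1.32), while the counts became 15 and 22 in obese hosts (25.3% and 32.2% of all genes) and 6 and 15 in lean hosts (12.3% and 12%). At day 14, 10 were higher and 4 lower in obese than in lean hosts (16.7% and 12.8% of all genes), and 14 and 0 after the correction (8.23% and 3.64%), among them Spc24 of the Ndc80 complex (0.89 before and 0.65 after), separase Espl1 (0.82 and 0.46) and the phosphatase Cdc25b (0.77 and 0.53).

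Regulators of the G1 decision were read in the same way. Of 17 factors of the RB, E2F and DREAM complexes 11 were higher and 5 lower at day 21 in obese hosts, and 8 and 3 in lean hosts (7 and 4, and 3 and 2, after the correction). In all 73.9% of genes were called in obese and 30.9% in lean hosts, and 57.6% and 24.3% after the correction. Rb1, the retinoblastoma protein, and Tfdp2, a dimer partner of E2F factors, rose by 2.62 ± 0.34 and 2.77 ± 0.35 (SE) in obese hosts, whereas E2f2 and Mybl2, which encodes B-Myb, fell by 1.61 ± 0.19 and 1.68 ± 0.21 (SE). After the correction they had 0.44, 1.38, -0.92 and -0.98, each still called. Mybl2 was higher in obese than in lean hosts at day 14, by 0.94 ± 0.22 (SE) and by 0.56 after the correction. Of 9 tested G1 cyclins and kinases 5 were higher and 3 lower in obese hosts over time (37.8% and 36.1% of all genes), and after the correction 2 and 5 (25.3% and 32.2%). Cdk4 and its partner Ccnd3 fell by 1.20 and 1.19, and Ccnc, the cyclin of the Mediator kinase module, rose by 3.02 (after the correction -0.73, -0.70 and 0.58, each called).

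The CDK inhibitors restrain these kinases, and 5 of 7 were tested. Cdkn2b had 0 counts in all 18 libraries, and Cdkn2a, which encodes p16Ink4a and p19Arf, had at most 2 counts in a library, so both lay under the filter. Cdkn1b, which encodes p27Kip1, was at 44.8 ± 6.05 CPM (SD) in the 4 lean and at 25.7 ± 10.6 CPM (SD) in the 5 obese tumors of day 14, and at 126 ± 45.9 and 112 ± 16.5 CPM (SD) in the 4 and 5 tumors of day 21. All day 21 libraries, at 80.2 CPM or more, lay above all day 14 libraries, at 49.9 CPM or less. Cdkn1b rose by 2.12 ± 0.26 (SE) in obese (edgeR adjusted p = 1.1e-06) and 1.49 ± 0.28 (SE) in lean hosts (edgeR adjusted p = 0.000706), and by 0.38 and 0.51 after the correction, both still called. Cdkn2d fell by 1.36 ± 0.20 (SE) in obese hosts (-0.40 after the correction, called). Cdkn2c fell by 0.38 in obese hosts before the correction and rose by 0.61 after it. Cdkn1a, the p53 target p21, and Cdkn1c, at under 1 CPM in all libraries, were not called in any comparison.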

How the data were processed

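The authors deposited 1 table of raw, not normalized counts per gene, for 39017 genes in 19 libraries; per the submitters' processing notes TopHat, DESeq and mm10 were used, in roles the notes do not give. The day 21 columns hold the deposited counts as well, but 1 of them stops on chromosome 5. For the counting tool, annotation and strand setting, which were not given in the sources used here, nothing was assumed, so overlapping and antisense genes (12 of the 40 share exon bases with another gene) and 3 genes with pseudogenes by name are uncertain. Gene lengths came with the deposited counts. Symbols and GC content (longest transcript in GENCODE vM21) were joined by identifier, which matched 37607 genes.

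Counts of 18 libraries, without lean day 21 replicate 4, were fitted in R 4.3.3 with edgeR 4.0.16 (filterByExpr over the 4 groups, TMM scaling, a mean per group, quasi-likelihood test, adjustment over all 16352 genes tested). Printed CPM are TMM-scaled, log2 CPM has a prior count of 2, and each standard error is the fold change divided by the root of its F value. Libraries were taken as separate tumors from their numbered sample names, so p-values measure the spread between libraries. For the GC and length correction, each library's deviation of log2 CPM from the mean over libraries was fitted over all genes with natural splines of GC content (5 degrees of freedom) and log2 length (5), and the fit was used as an offset. The correction may also remove differences that go with GC content for other reasons. The scripts were tested on simulated counts.

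The 40 genes, the other gene lists and the correction were chosen with earlier results of these data known. All 40 could be named; the values of every library were given for genes called in most comparisons of their group and for Ccnd1, Tyms and Mki67, with up to 4 genes of smallest p from each other list. Alternatives were RLE scaling, no filter, DESeq2 1.42.0, the compared groups alone, all 19 libraries, the replicate number as a block, the GC and length correction with and without it, a prior count of 0.5 and each library left out.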

Additional observations from a re-analysis of the deposited data

Results flagged for a closer look

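Of 172 sets of values in 1 group of 4 or 5 libraries (genes and means of gene groups), 3 held a library far from the others by Dixon's ratio, where chance gives about 1 in 20. Top2a was at 7.20 log2 CPM in lean day 14 replicate 4, against 6.63 to 6.70 in the other lean day 14 libraries. The same library had the highest difference of G2/M and G1/S means of its group, -0.41 against -0.71 to -0.66. Tyms was at 4.05 log2 CPM in obese day 21 replicate 4, against 4.57 to 4.61 in the other obese day 21 libraries.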

How the results depend on the processing

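Over the alternatives, results of single called genes kept their direction and call 1263 times, kept the direction but lost the call 213 times, and changed sign 6 times. The 6 were those of the GC and length correction without and with the replicate block in obese hosts over time, for Pcna (-0.28 and -0.28), Ccna2 (-0.31 and -0.32) and Ube2c (0.066 and 0.079). With all 19 libraries, including the one that stops on chromosome 5, 530 genes and 1 of the 40 were called over time in lean hosts, with a G1/S median of -0.57, and 4213 genes and 12 of the 40 in obese hosts. In that fit 0 genes were called between hosts at day 14 and 0 at day 21. Its G1/S and G2/M medians at day 21 were 0.19 and 0.35, those of the interaction 0.12 and 0.54, and the median of all genes moved by -0.28 over time in lean hosts, by 0.30 between hosts at day 21 and by 0.37 in the interaction. Without a filter that median moved by 0.16 over time in obese hosts and by 0.19 in the interaction.

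With the compared groups alone 0 genes (0 of the 40) were called between hosts at day 14 and 0 at day 21, and the interaction could not be fitted in this way. DESeq2 called 13 genes between hosts at day 21 and 1557 in the interaction, 1 of the 40 among them. After the GC and length correction 1941 genes were called between hosts at day 14, the G1/S median there was 0.32, and the difference of G2/M and G1/S means in obese day 21 libraries was -0.25.

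Same-numbered libraries did not pair: their correlation ran from -0.40 to 0.55 and passed 0.1 in 6 of 24 pairs, and 5 of the 18 libraries correlated best with one of their own number. With the replicate block 13 of the 40 genes were called over time in lean hosts (3727 of all 16352), 32 in obese hosts (11875) and 13 between hosts at day 14 (4392), and 0 genes between hosts at day 21. With block and correction together 3039 genes and 10 of the 40 were called over time in lean hosts (G1/S median -0.41), and 1 gene and 0 of the 40 between hosts at day 14.

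Leaving out 1 library gave 3251 (without lean day 14 replicate 1) to 6388 genes and 9 (without lean day 21 replicate 3) to 18 of the 40 over time in lean hosts, and 30 to 32 of the 40 in obese hosts. Between hosts at day 14 it gave 0 to 7946 genes and 0 to 23 of the 40, with the highest counts without obese day 14 replicate 1, and at day 21 0 to 1 genes. In the interaction it gave 0 to 5656 genes, 0 to 16 of the 40 and a G1/S median of -0.39 to -0.17. Depth limited few of the tested values named, such as those of Cdkn1c, with 1 to 50 counts in a library.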

Other observations

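Lean day 21 replicate 4, which was left out, can be read on chromosomes 1 to 4, where 14 of the 40 genes lie. As CPM of the counts on these chromosomes, 11 of the 14 lay above the range of the other 4 lean day 21 libraries and 3 (Mcm6, Cenpf and E2f1) inside it. Of the 4239 tested genes on these chromosomes 18.1% lay above that range, 70.3% inside and 11.6% below. Bub1 was at 376 against 60.8 to 302, and Ccne2 at 198 against 48.5 to 163. Ccna2 was at 1600.06 against 881 to 1110, and Mcm3 at 1103 against 678 to 1066, below the 1362 to 1696 of lean day 14 libraries.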
